A study of Homo sapiens with 14 samples.

Results

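The expression changes described here are those of vehicle-treated PANC-1 cultures between 24 h and 0 h. PANC-1 is an established human cell line from a ductal carcinoma of the pancreas, grown as a monolayer in medium with serum. The study exposed these cells to proanthocyanidins (PA, plant polyphenols, 20 µg/ml) or to DMSO, the solvent used as vehicle, and sequenced their RNA at several times. The comparison takes 4 of the 14 libraries, chosen by treatment and time alone. They are 2 libraries labelled as DMSO for 24 h and 2 labelled as DMSO for 0 h. The remaining groups, each of 2 libraries, had 3 or 12 h of DMSO, or 3, 12 or 24 h of PA. No library of cells kept for 24 h without DMSO was analysed here, so a day in culture and a day in DMSO cannot be told apart. The study calls its replicates biological, but no label says that they came from separate cultures, so the p-values measure the spread between these samples, which may be partly technical.

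As background, NF-kB is a family of transcription factors held in the cytoplasm by inhibitors such as NFKBIA. When released it switches on genes for chemokines, which attract leukocytes, for adhesion proteins, and for its own inhibitors. Immediate early genes such as JUN, FOSL1 and EGR1 encode transcription factors induced by growth factors and serum, and Sprouty proteins restrain the ERK kinase cascade downstream of the same signals. YAP and TEAD drive genes such as CTGF and ANKRD1 in spread, low-density epithelial cells.

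After 24 h, 373 of 15181 tested genes (2.46%) had passed the test. Of these, 293 (1.93%) fell and 80 (0.527%) rose relative to 0 h. The genes that fell included chemokines and other NF-kB targets, immediate early transcription factors, and ligands and feedback genes of EGF receptor and ERK signalling. A change of at least 2-fold was reached by 123 of the called genes (0.810%), of which 90 (0.593%) fell and 33 (0.217%) rose. Calls are from edgeR's quasi-likelihood test at a Benjamini-Hochberg adjusted p under 0.05 over the 15181 genes, with 1 estimate of the spread from all 14 libraries. The median log2 change over all tested genes was -0.005. Throughout, a change is DMSO 24 h minus DMSO 0 h on the log2 scale with its standard error, and a level is in CPM, reads scaled to a common library total, after trimmed-mean (TMM) scaling. Groups are called apart or separate where both 24 h libraries lay on the same side of both 0 h libraries. That held for each called gene and, over all 15181 tested genes, for 4202 on the higher side and 4527 on the lower side.

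The number of calls depended on the model, and the excess of falls over rises was smaller under several alternatives. DESeq2 called 774 genes, 251 higher and 523 lower, and without TMM scaling edgeR called 319, 109 higher and 210 lower. With no filter on low counts it called 703, 270 higher and 433 lower. Fits to the 8 DMSO libraries alone called 726 genes higher and 1069 lower, and fits to the 4 libraries alone called 1185 higher and 1459 lower. Of the 373 genes, 372 were called in the same direction in each of these last fits. Leaving out a library left far fewer calls, namely 27 and 104 when replicate 1 or replicate 2 of DMSO 24 h was dropped, and 85 and 80 when replicate 1 or replicate 2 of DMSO 0 h was. The lone library of the reduced group was then assumed to vary like the other groups. Of the 69 called genes named below by rule, 15 kept their calls without any 1 of the 4 libraries and 30 lost them in each of the 4 cases, while no change turned its sign.

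The libraries held 30013257 and 29506963 reads at 24 h, against 27000477 and 35213154 reads at 0 h. A count of 3 reads, taken as the limit that a count of 0 allows, amounts to 0.0922 and 0.0958 CPM in the 24 h libraries, against 0.107 and 0.0850 CPM in the 0 h libraries. The 8 markers of ductal or epithelial tumour cells were all tested and summed to 8113 to 8289 CPM at 24 h and 7357 to 7991 CPM at 0 h, led by KRT8 and KRT18. The sum includes VIM, which is not specific to epithelial cells, with 2004 and 2150 CPM at 24 h, against 1876 and 1975 CPM at 0 h. KRT7 and EPCAM had at most 10.7 CPM in any of these 4 libraries. MUC1 had 7.80 and 7.50 CPM at 24 h, against 12.8 and 13.4 CPM at 0 h, lower while the sum was higher. Acinar markers summed to at most 0.0614 CPM at 24 h and 0.0358 CPM at 0 h, with PRSS1, CPA1 and CELA3A at 0, and the islet markers INS, GCG and CHGA were at 0. Leukocyte markers, led by CD68, summed to 33.3 to 39.1 CPM at 24 h and 38.4 to 47.5 CPM at 0 h. CD68 alone had 31.2 and 37.3 CPM at 24 h, against 37.3 and 46.2 CPM at 0 h. CD14 went the other way, with 1.81 and 1.66 CPM at 24 h, against 0.859 and 0.991 CPM at 0 h. PTPRC, CD3E, LYZ and CD79A had at most 0.170 CPM in any of these 4 libraries. Endothelial markers summed to 0.670 to 1.14 CPM at 24 h and 0.850 to 1.15 CPM at 0 h. CDKN2A, a gene known to be deleted in PANC-1, had 0 reads in these 4 libraries. In bulk RNA, fewer cells of a kind and less RNA per cell cannot be told apart.

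Over all tested genes 1.93% fell and 0.527% rose, and 1 call in a list is not read as a result about that list. Of the lists examined, chemokine and NF-kB genes had the largest share of members that fell. Of 16 members, 14 passed the filter on low counts, 11 of these fell and none rose, with a median change of -1.12 against -0.005 over all tested genes. The other 2 members, IL6 and IL1A, were too low to test. With the 8 DMSO libraries alone, 14 of the 14 tested members were called lower. That fit called 726 genes higher and 1069 lower over all genes it tested, against 80 and 293 in the main fit. Some of the added list calls from it, here and below, therefore follow from its larger number of calls. The promoters of CXCL1 and CXCL2 are printed because these genes, both on chromosome 4, fell by nearly the same amount and have closely similar sequences. Each is the stretch of 150 bases before the gene's start, 5′ to 3′ on the gene's own strand, from RefSeq on GRCh38.p14. Capitals mark the longest run of letters that the printed stretches share, which is 42 bases long and begins 57 bases before each start.
CXCL1, chr4:73869243-73869392, plus strand: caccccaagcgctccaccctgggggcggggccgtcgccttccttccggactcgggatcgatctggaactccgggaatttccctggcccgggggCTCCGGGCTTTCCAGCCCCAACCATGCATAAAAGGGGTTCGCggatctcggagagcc
CXCL2, chr4:74099196-74099345, minus strand: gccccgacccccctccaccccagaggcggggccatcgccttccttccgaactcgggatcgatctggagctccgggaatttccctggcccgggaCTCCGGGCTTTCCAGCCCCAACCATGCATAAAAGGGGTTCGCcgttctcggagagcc

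CXCL8, a chemokine for neutrophils (chromosome 4, 73740506 to 73743716, plus strand, GENCODE 29), had 5.74 and 3.67 CPM at 24 h, against 39.8 and 35.6 CPM at 0 h. Its change was -3.00 ± 0.28 (adjusted p = 0.000112). CXCL1 and CXCL2, whose promoters share the run of 42 bases, are also neutrophil chemokines, and reads may be partly shared between them. CXCL1 had 35.0 and 33.6 CPM at 24 h, against 140 and 127 CPM at 0 h, a change of -1.96 ± 0.19 (adjusted p = 0.00017). CXCL2 had 1.66 and 1.72 CPM at 24 h, against 6.62 and 7.22 CPM at 0 h, a change of -2.03 ± 0.26 (adjusted p = 0.00122). In each of the 3 genes the groups lay well apart, and the 24 h replicates were close together in CXCL1 and CXCL2 but less so in CXCL8. CCL20, which attracts dendritic cells and lymphocytes, was low throughout, at 0.829 and 0.798 CPM at 24 h, against 3.76 and 3.09 CPM at 0 h (change -2.06 ± 0.42, adjusted p = 0.0209). CSF2, a myeloid growth factor, was called lower, but its 0.0307 and 0.0958 CPM at 24 h lay at or under 3 reads, against 0.824 and 0.963 CPM at 0 h, so no fold is given. Without DMSO 24 h replicate 1, CXCL2 and CCL20 missed the threshold at adjusted p = 0.0517 and 0.25, and CCL20 also missed it without each of the other 3 libraries.

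The adhesion receptor and the feedback genes of the pathway fell less far. ICAM1, which binds leukocyte integrins, had 147 and 154 CPM at 24 h, against 318 and 348 CPM at 0 h, a change of -1.15 ± 0.14 (adjusted p = 0.000785). TNFAIP3, an enzyme that switches off NF-kB signalling, had 7.50 and 6.42 CPM at 24 h, against 15.5 and 14.3 CPM at 0 h (change -1.10 ± 0.18, adjusted p = 0.00565). NFKBIA, the inhibitor that holds NF-kB in the cytoplasm, had 109 and 112 CPM at 24 h, against 187 and 208 CPM at 0 h (change -0.83 ± 0.12, adjusted p = 0.00248). These genes had no overlap between the groups. The NF-kB subunits RELB and NFKB1 changed by -0.89 (adjusted p = 0.0381) and -0.71 (adjusted p = 0.0124), and the cytokine LIF by -0.75 (adjusted p = 0.013). The subunit NFKB2 changed by -0.45 (adjusted p = 0.116), CXCL3 by -2.50 (adjusted p = 0.156) and the apoptosis inhibitor BIRC3 by -1.02 (adjusted p = 0.231). These 3 did not pass, although their groups did not overlap either. When DMSO 24 h replicate 1 was left out, NFKBIA missed the threshold (adjusted p = 0.0797), as did CSF2 (adjusted p = 0.142). TNFAIP3 kept its call in 1 of the 4 cases (adjusted p up to 0.0883, without DMSO 24 h replicate 2). RELB, NFKB1 and LIF lost theirs in each of the 4, with adjusted p = 0.416, 0.272 and 0.229 without DMSO 24 h replicate 1.

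Genes outside that list with related products were among the largest falls. LCN2, a secreted protein that binds iron-carrying siderophores (chromosome 9, 128149071 to 128153455, plus strand), had 0.246 and 0.351 CPM at 24 h, against 3.94 and 4.53 CPM at 0 h. Its change of -3.82 ± 0.40 (adjusted p = 0.000242) was the largest among the called falls with a mean of at least 2 CPM. CX3CL1, a membrane-bound chemokine, had 2.33 and 3.19 CPM at 24 h, against 16.7 and 19.6 CPM at 0 h, a change of -2.72 ± 0.24 (adjusted p = 0.00011). CCL2, which attracts monocytes, had 30.3 and 28.2 CPM at 24 h, against 91.3 and 101 CPM at 0 h, a change of -1.72 ± 0.15 (adjusted p = 9.69e-05). In all 3 the higher 24 h library lay far under the lower 0 h library. LCN2, CX3CL1, CCL2, CXCL8, CXCL1 and ICAM1 kept their calls without any 1 of the 4 libraries.

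**Figure D1:**
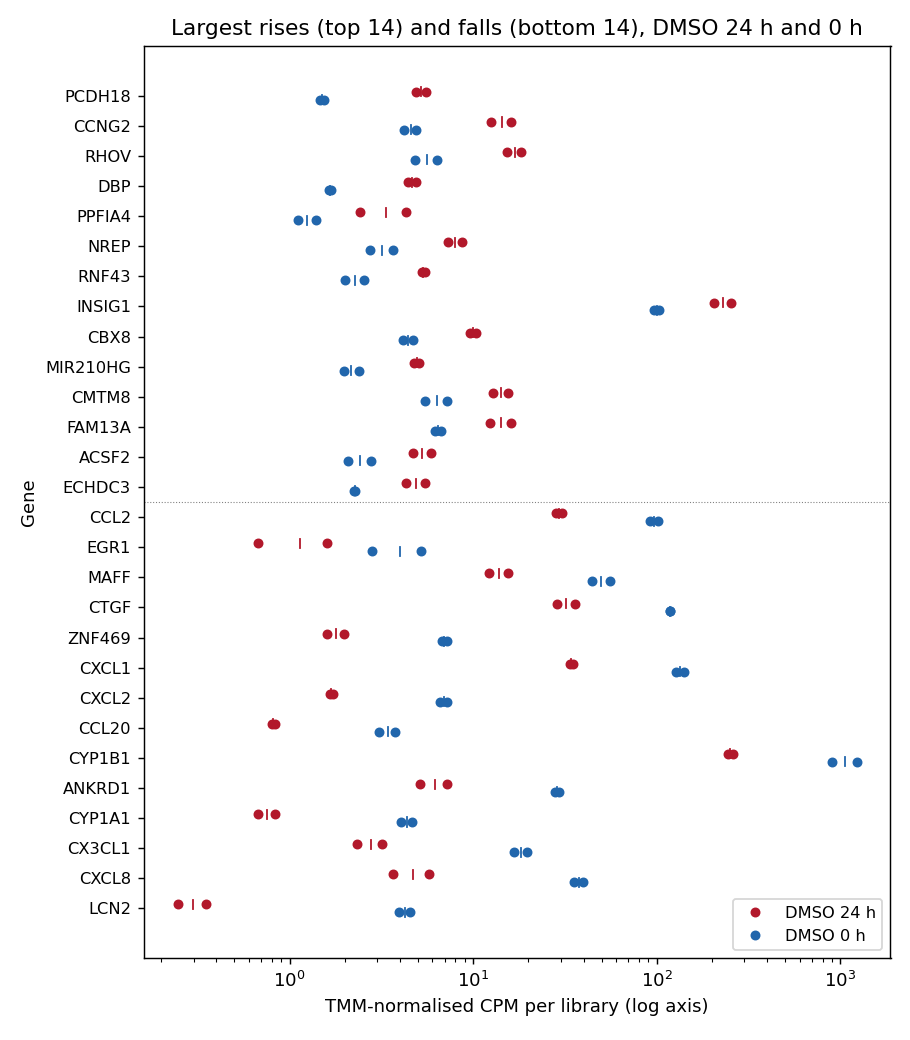
Levels of the 14 called genes with the largest rises (top) and the 14 with the largest falls (bottom), in TMM-normalised CPM on a log axis. Each dot is a library, DMSO 24 h in red and DMSO 0 h in blue, and each short bar is the mean of 2 libraries. The groups do not overlap in any of the 28 genes, which were chosen for that among other criteria.

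Also among the largest falls were 2 cytochrome P450 genes that the aryl hydrocarbon receptor induces. CYP1B1 (chromosome 2, 38066973 to 38109902, minus strand), which oxidises steroids and polycyclic aromatic compounds, had 243 and 260 CPM at 24 h, against 1224 and 901 CPM at 0 h. Its change was -2.08 ± 0.30 (adjusted p = 0.00246). CYP1A1, a related enzyme and the best known target of that receptor, had 0.829 and 0.670 CPM at 24 h, against 4.66 and 4.02 CPM at 0 h, a change of -2.52 ± 0.28 (adjusted p = 0.00054) that rests on few reads at 24 h. The groups of both genes lay apart. In fits lacking DMSO 24 h replicate 1, CYP1B1 missed the threshold (adjusted p = 0.0777), while CYP1A1 passed it without any 1 library.

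Immediate early genes had 6 falls, where 1.93% of all tested genes fell. Of 17 tested members none rose, 11 did not pass, and the median change was -0.71. With the 8 DMSO libraries alone 11 were called lower. FOSL1, an AP-1 subunit abundant in carcinoma lines, had 122 and 184 CPM at 24 h, against 368 and 417 CPM at 0 h, a change of -1.36 ± 0.19 (adjusted p = 0.00214). JUN, its partner in AP-1, had 125 and 146 CPM at 24 h, against 256 and 261 CPM at 0 h, a change of -0.93 ± 0.15 (adjusted p = 0.00431). In both the 24 h libraries lay below the 0 h libraries, with a wider gap between FOSL1's 24 h replicates. EGR1, a zinc-finger factor induced within minutes by growth factors, had 0.676 and 1.60 CPM at 24 h, against 2.83 and 5.18 CPM at 0 h (change -1.83 ± 0.41, adjusted p = 0.0314). ATF3, a stress-induced factor, had 3.19 and 3.99 CPM at 24 h, against 6.52 and 7.76 CPM at 0 h (change -0.99 ± 0.21, adjusted p = 0.0248). The stress-induced IER3 and ZFP36, which destabilises cytokine messages, changed by -0.71 (adjusted p = 0.0393) and -0.64 (adjusted p = 0.048). FOS changed by -0.27 (adjusted p = 0.855), MYC by -0.48 (adjusted p = 0.112) and JUNB by -0.51 (adjusted p = 0.111), and these 3 did not pass. Without DMSO 24 h replicate 1, FOSL1, JUN, EGR1 and ATF3 missed the threshold at adjusted p = 0.0652, 0.13, 0.381 and 0.341, and the change of EGR1 ranged from -2.57 to -1.32 over the 4 libraries left out in turn. EGR1 also missed it without DMSO 0 h replicate 2 (adjusted p = 0.342), and ATF3, IER3 and ZFP36 without each 1 of the 4 libraries, IER3 and ZFP36 at up to 0.365 and 0.43. ZFP36 also missed it under both other scalings (DESeq2's size factors, and library totals without TMM) and with a minimum of 5 CPM, and IER3 without TMM scaling.

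Ligands of the EGF receptor and feedback genes of the ERK cascade fell in 5 of 16 tested members and rose in none, with a median change of -0.58. SPRY4, a Sprouty inhibitor of receptor signalling, had 32.8 and 36.7 CPM at 24 h, against 112 and 115 CPM at 0 h. Its change of -1.71 ± 0.13 (adjusted p = 5.27e-05) was called without any 1 of the 4 libraries. SPRY2, its relative, had 8.79 and 9.89 CPM at 24 h, against 19.0 and 15.9 CPM at 0 h (change -0.90 ± 0.16, adjusted p = 0.00953). Both Sprouty genes had separate groups. The EGF receptor ligand HBEGF had 2.15 and 3.13 CPM at 24 h, against 7.99 and 8.61 CPM at 0 h, a change of -1.65 ± 0.26 (adjusted p = 0.00431). The ligand AREG had 66.9 and 76.6 CPM at 24 h, against 145 and 145 CPM at 0 h, a change of -1.01 ± 0.15 (adjusted p = 0.00248). A further ligand, EREG, fell by 1.01 (adjusted p = 0.0415), while the receptor EGFR changed by -0.64 (adjusted p = 0.0595) and the ERK phosphatase DUSP6 by -0.73 (adjusted p = 0.0787). When DMSO 24 h replicate 1 was left out, the ligands HBEGF and AREG missed the threshold (adjusted p = 0.132 and 0.0968), as did SPRY2 (adjusted p = 0.204), which kept its call in 1 of the 4 cases. EREG kept it in none (adjusted p = 0.34 without DMSO 0 h replicate 1) and lost it under both other scalings. MAFF, a small Maf transcription factor outside these lists, had 12.2 and 15.4 CPM at 24 h, against 44.1 and 55.5 CPM at 0 h, a change of -1.85 ± 0.19 (adjusted p = 0.000178) that was called without any 1 library.

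Targets of YAP and TEAD showed 4 falls and no rise among 15 tested members, with a median change of -0.34. CTGF, a secreted matricellular protein (chromosome 6, 131948176 to 131951373, minus strand), had 28.4 and 35.7 CPM at 24 h, against 118 and 117 CPM at 0 h, a change of -1.88 ± 0.19 (adjusted p = 0.000178). ANKRD1, an ankyrin-repeat protein, had 5.13 and 7.21 CPM at 24 h, against 28.0 and 29.3 CPM at 0 h, a change of -2.21 ± 0.22 (adjusted p = 0.00017). Both kept their calls without any 1 library. THBS1, which encodes thrombospondin, had 41.2 and 46.6 CPM at 24 h, against 127 and 100 CPM at 0 h, a change of -1.37 ± 0.22 (adjusted p = 0.00431). F3, tissue factor, had 1.63 and 1.34 CPM at 24 h, against 3.22 and 3.62 CPM at 0 h (change -1.20 ± 0.25, adjusted p = 0.0232). The groups were apart in these 4 genes. CYR61, another standard target, changed by -0.34 (adjusted p = 0.341), AMOTL2 by -0.35 (adjusted p = 0.31) and AJUBA by -0.52 (adjusted p = 0.0867). These 3 did not pass, although their groups lay apart as well and all 15 changes were negative. In fits lacking DMSO 24 h replicate 1, THBS1 missed the threshold at adjusted p = 0.122, as it did without DMSO 0 h replicate 1 (adjusted p = 0.0818), and F3 missed it without each of the 4 libraries, at up to 0.209 without DMSO 0 h replicate 2.

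In the TGF-beta response list, 6 of 13 tested members fell and none rose, and the median change was -0.51. JAG1, a Notch ligand, had 86.0 and 96.3 CPM at 24 h, against 177 and 154 CPM at 0 h (change -0.86 ± 0.15, adjusted p = 0.00782), with separate groups. LTBP2, a matrix protein related to those that bind latent TGF-beta, had 28.9 and 34.9 CPM at 24 h, against 53.9 and 55.5 CPM at 0 h (change -0.78 ± 0.14, adjusted p = 0.0113). ID2, an inhibitor of helix-loop-helix factors, had 1.41 and 1.31 CPM at 24 h, against 2.61 and 3.54 CPM at 0 h (change -1.18 ± 0.25, adjusted p = 0.0258). ID3 and the inhibitory Smad SMAD7 changed by -1.25 (adjusted p = 0.0334) and -0.73 (adjusted p = 0.0414). TGFBI and PMEPA1 changed by -0.22 (adjusted p = 0.456) and -0.43 (adjusted p = 0.0787). Without DMSO 24 h replicate 1, JAG1 and LTBP2 missed the threshold at adjusted p = 0.186 and 0.262. Each kept its call in 1 of the 4 cases, while ID2, ID3 and SMAD7 kept it in none (adjusted p = 0.292 for ID2 without DMSO 0 h replicate 2, and 0.365 for ID3 and 0.341 for SMAD7 without DMSO 24 h replicate 1). SMAD7 also lost it under both other scalings and with the offset for GC content.

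Matrix and integrin genes had 1 call in 19 tested members. It was ITGA3, a laminin-binding integrin chain, with 541 and 647 CPM at 24 h, against 893 and 959 CPM at 0 h (change -0.64 ± 0.16, adjusted p = 0.0485). The fibroblast markers, led by COL1A1, summed to 13.2 to 13.9 CPM at 24 h and to 19.1 to 20.3 CPM at 0 h. COL1A1 alone had 13.4 and 12.6 CPM at 24 h, against 18.8 and 19.8 CPM at 0 h. Each other marker in that sum had at most 0.338 CPM in any of the 4 libraries compared. The part of the fibroblast markers in the matrix and TGF-beta values was not tested. Among 14 tested genes of epithelial junctions and keratins, the tight-junction protein CLDN1 was the 1 call, with 22.9 and 26.9 CPM at 24 h, against 60.3 and 53.8 CPM at 0 h (change -1.20 ± 0.16, adjusted p = 0.00129). The median change of this list was -0.05. When DMSO 24 h replicate 1 was left out, CLDN1 and ITGA3 had adjusted p = 0.0661 and 0.458. ITGA3 missed the threshold without each of the 4 libraries and with a minimum of 5 CPM. ZNF469, a zinc-finger gene, had 1.60 and 1.98 CPM at 24 h, against 7.16 and 6.74 CPM at 0 h (change -1.96 ± 0.31, adjusted p = 0.00448), and missed the threshold without either DMSO 24 h replicate 1 (adjusted p = 0.131) or DMSO 0 h replicate 1 (adjusted p = 0.0556).

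**Figure D2:**
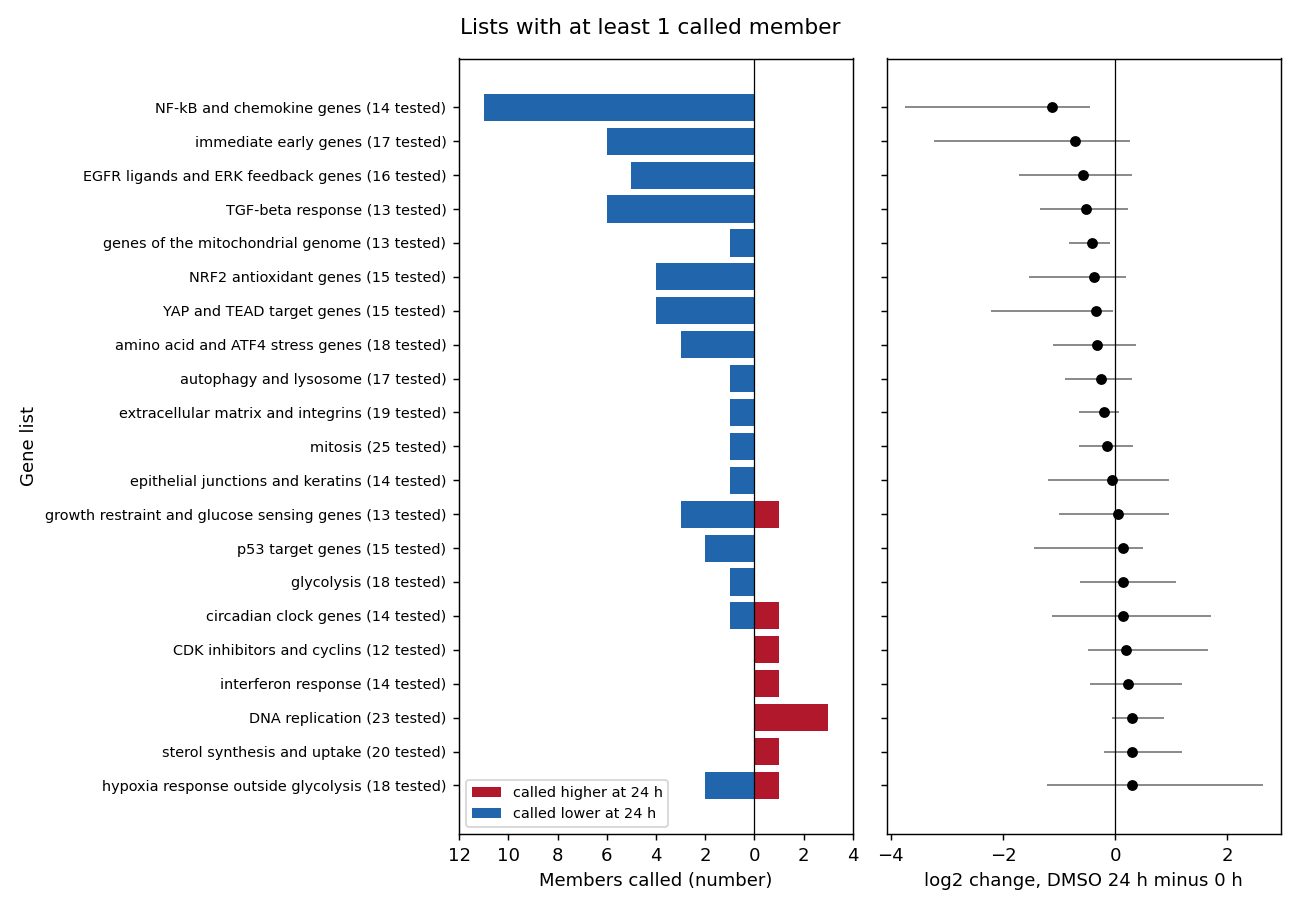
Gene lists with at least 1 called member, ordered by median change. The left panel gives the number of members called higher at 24 h (red) and lower at 24 h (blue), and the right panel the median (dot) and the range (line) of the log2 change over tested members. The lower ends of the NF-kB and immediate early ranges are fitted values of genes near the counting limit. NF-kB and chemokine genes have 11 lower calls among 14, and DNA replication has 3 higher calls among 23.

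Among p53 targets, 2 of 15 tested members fell and none rose, and the median change was 0.15. CDKN1A, an inhibitor of cyclin-dependent kinases (chromosome 6, 36676460 to 36687339, plus strand), had 17.9 and 20.9 CPM at 24 h, against 49.6 and 56.4 CPM at 0 h. Its change of -1.45 ± 0.18 (adjusted p = 0.000836) was called without any 1 library. GDF15, a secreted stress factor, had 78.7 and 84.9 CPM at 24 h, against 207 and 221 CPM at 0 h (change -1.39 ± 0.32, adjusted p = 0.0364), but was lost without each library (adjusted p = 0.348 without DMSO 24 h replicate 1). MDM2, the main p53 feedback gene, changed by 0.24 (adjusted p = 0.627), FAS by 0.24 (adjusted p = 0.825) and DDB2 by 0.42 (adjusted p = 0.166), and these 3 did not pass.

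CCNG2, an unconventional cyclin linked to growth arrest (chromosome 4, 77157151 to 77433388, plus strand), had 16.2 and 12.5 CPM at 24 h, against 4.91 and 4.22 CPM at 0 h, a rise of 1.65 ± 0.20 (adjusted p = 0.000836). It was the 1 call among 12 tested members of the list of cyclins and kinase inhibitors, which does not hold CDKN1A, and the only named rise that kept its call without any 1 library. In the list of growth restraint and glucose sensing genes, 1 of 13 tested members rose, 3 fell and 9 did not pass, with a median change of 0.06. HBP1, a repressor of cell-cycle genes, had 17.7 and 17.3 CPM at 24 h, against 11.3 and 12.0 CPM at 0 h (change 0.58 ± 0.14, adjusted p = 0.0409). The Krüppel-like factors KLF4 and KLF6 changed the other way. KLF4 had 13.1 and 15.3 CPM at 24 h, against 29.2 and 27.7 CPM at 0 h (change -1.00 ± 0.14, adjusted p = 0.00248), and KLF6 had 107 and 106 CPM at 24 h, against 180 and 177 CPM at 0 h (change -0.74 ± 0.12, adjusted p = 0.00633). PDK4, a kinase that blocks pyruvate oxidation, had 14.4 and 16.0 CPM at 24 h, against 29.8 and 27.7 CPM at 0 h (change -0.92 ± 0.22, adjusted p = 0.0401). None of these genes had overlapping groups. In fits lacking DMSO 24 h replicate 1, HBP1, KLF4, KLF6 and PDK4 had adjusted p = 0.351, 0.0968, 0.124 and 0.381, and HBP1, KLF6 and PDK4 were lost without each library. PDK4 also missed the threshold under both other scalings, and HBP1 without the filter on low counts.

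DNA replication genes rose in 3 of 23 tested members and fell in none, and 21 of the 23 changes were positive, with a median of 0.30. With the 8 DMSO libraries alone 7 were called higher. PCNA, the sliding clamp of DNA polymerases, had 288 and 283 CPM at 24 h, against 163 and 158 CPM at 0 h, a change of 0.83 ± 0.18 (adjusted p = 0.0258). MCM6, a subunit of the replicative helicase, had 122 and 120 CPM at 24 h, against 76.4 and 71.3 CPM at 0 h, a change of 0.71 ± 0.14 (adjusted p = 0.0175). TK1, thymidine kinase, had 32.4 and 38.8 CPM at 24 h, against 19.0 and 19.9 CPM at 0 h, a change of 0.87 ± 0.19 (adjusted p = 0.0279). Each had 24 h libraries above both 0 h libraries, and each lost its call without each 1 of the 4 libraries, at adjusted p up to 0.249, 0.224 and 0.211. The helicase subunits MCM2 and MCM5 changed by 0.38 (adjusted p = 0.217) and 0.43 (adjusted p = 0.15), and neither passed.

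Mitotic genes had 1 fall and no rise, where 1.93% of all tested genes fell. The call among 25 tested was MKI67, the proliferation antigen, which had 760 and 843 CPM at 24 h, against 1250 and 1266 CPM at 0 h (change -0.65 ± 0.15, adjusted p = 0.0415). The call was lost without each library (adjusted p = 0.397 without DMSO 24 h replicate 1), under both other scalings and with a minimum of 5 CPM. The cyclin CCNB1 changed by -0.38 (adjusted p = 0.0962), TOP2A by 0.17 (adjusted p = 0.861) and CDK1 by 0.32 (adjusted p = 0.585), and the median of the list was -0.15. No member was called among 18 tested DNA repair genes (median 0.22) or 13 replication histones (median 0.21).

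In the NRF2 antioxidant list, 4 of 15 tested members fell and none rose, with a median change of -0.38. FTH1, the ferritin heavy chain that stores iron (chromosome 11, 61959718 to 61967660, minus strand), had 70.1 and 71.2 CPM at 24 h, against 179 and 229 CPM at 0 h, a change of -1.53 ± 0.20 (adjusted p = 0.00122). FTH1 has many processed pseudogenes, so its level is uncertain where counting split or dropped shared reads, but its call held without any 1 library. HMOX1, which degrades haem, had 7.10 and 9.07 CPM at 24 h, against 14.9 and 17.7 CPM at 0 h (change -1.01 ± 0.25, adjusted p = 0.0488). SRXN1, which repairs peroxiredoxins, had 49.1 and 55.2 CPM at 24 h, against 78.1 and 80.8 CPM at 0 h (change -0.61 ± 0.14, adjusted p = 0.0389). TXNRD1, a thioredoxin reductase, had 277 and 267 CPM at 24 h, against 388 and 363 CPM at 0 h (change -0.47 ± 0.11, adjusted p = 0.0406). The groups were apart in these 4 genes, but HMOX1, SRXN1 and TXNRD1 lost their calls without each library, at adjusted p up to 0.449, 0.406 and 0.309. HMOX1 and TXNRD1 also lost them under both other scalings and SRXN1 without TMM scaling, as did HMOX1 with a minimum of 5 CPM and TXNRD1 without the filter on low counts. The ferritin light chain FTL changed by -0.77 (adjusted p = 0.0571) and NQO1, a standard NRF2 target, by 0.20 (adjusted p = 0.437).

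Genes of the ATF4 amino acid response fell in 3 of 18 tested members and rose in none, with a median of -0.33. ATF4 itself had 247 and 280 CPM at 24 h, against 439 and 468 CPM at 0 h (change -0.78 ± 0.15, adjusted p = 0.0134). SLC7A5, an importer of large neutral amino acids, had 100 and 113 CPM at 24 h, against 205 and 190 CPM at 0 h (change -0.89 ± 0.19, adjusted p = 0.0234). STC2, a secreted glycoprotein, had 260 and 275 CPM at 24 h, against 548 and 606 CPM at 0 h (change -1.11 ± 0.14, adjusted p = 0.00122). All 3 had separate groups. The amino acid synthesis genes ASNS and PHGDH, other members of the list, changed by 0.05 (adjusted p = 0.878) and 0.27 (adjusted p = 0.532). Without DMSO 24 h replicate 1, STC2 had an adjusted p of 0.0531, ATF4 of 0.253 and SLC7A5 of 0.311, and the last 2 were lost without each library. Among 17 autophagy and lysosome genes, the protease CTSD was the 1 call, with 22.7 and 24.7 CPM at 24 h, against 40.9 and 46.6 CPM at 0 h (change -0.89 ± 0.19, adjusted p = 0.0279), lost without each library (adjusted p up to 0.338).

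Sterol, glycolytic and hypoxia genes had few calls. INSIG1, which retains the sterol-regulated transcription factors in the endoplasmic reticulum (chromosome 7, 155297776 to 155310235, plus strand), had 253 and 205 CPM at 24 h, against 103 and 97.0 CPM at 0 h, a rise of 1.20 ± 0.18 (adjusted p = 0.00323). It was the 1 call among 20 sterol genes, whose median change was 0.31 and of which 7 were called higher with the 8 DMSO libraries alone. In the hypoxia list 1 of 18 tested members rose and 2 fell, with a median of 0.31. BNIP3, a mitophagy receptor, had 418 and 364 CPM at 24 h, against 231 and 254 CPM at 0 h (change 0.69 ± 0.13, adjusted p = 0.0156). The angiogenic factor VEGFA had 65.0 and 70.5 CPM at 24 h, against 100 and 113 CPM at 0 h (change -0.66 ± 0.13, adjusted p = 0.0157). ANGPTL4, a lipoprotein lipase inhibitor, had 70.5 and 68.6 CPM at 24 h, against 160 and 164 CPM at 0 h (change -1.22 ± 0.17, adjusted p = 0.00237). The groups were apart in these genes, with members of 1 list moving in opposite directions. PFKFB3, which makes an activator of glycolysis, was the 1 call among 18 glycolytic genes, with 19.1 and 15.4 CPM at 24 h, against 24.3 and 28.7 CPM at 0 h (change -0.62 ± 0.15, adjusted p = 0.0406). The rest of that list leaned the other way, with 12 of the 18 changes positive and a median of 0.15. With the 8 DMSO libraries alone, 5 glycolytic genes were called higher and 1 lower. GAPDH had 2458 and 2466 CPM at 24 h, against 2073 and 2301 CPM at 0 h, a change of 0.17 ± 0.15 that did not pass (adjusted p = 0.626). When DMSO 24 h replicate 1 was left out, INSIG1 and ANGPTL4 had adjusted p = 0.0871 and 0.0661, and INSIG1 had 0.0586 without DMSO 0 h replicate 2. BNIP3, VEGFA and PFKFB3 lost their calls without each library, at adjusted p up to 0.272, 0.272 and 0.369, and PFKFB3 also without TMM scaling and without the filter on low counts.

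Of 14 tested clock genes, 1 rose and 1 fell. DBP, a clock output factor, had 4.88 and 4.41 CPM at 24 h, against 1.65 and 1.67 CPM at 0 h (change 1.48 ± 0.22, adjusted p = 0.00289). NR1D1, a repressor in the clock's feedback loop, had 2.92 and 3.29 CPM at 24 h, against 6.80 and 6.80 CPM at 0 h (change -1.13 ± 0.25, adjusted p = 0.033). Both are usually driven by the same activators, yet they changed in opposite directions here. PER1 and ARNTL, further core clock genes, changed by 0.39 (adjusted p = 0.324) and 0.15 (adjusted p = 0.711). In fits lacking DMSO 24 h replicate 1, the adjusted p was 0.0661 for DBP and 0.349 for NR1D1, which was lost without each library. In the interferon list PARP9, an ADP-ribosyltransferase family member, was the 1 call among 14, with 45.4 and 44.0 CPM at 24 h, against 26.8 and 27.2 CPM at 0 h (change 0.73 ± 0.14, adjusted p = 0.0159), likewise lost without each library (adjusted p up to 0.223).

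The largest rises outside the lists belonged to genes of varied function. PCDH18, a protocadherin of cell adhesion (chromosome 4, 137518918 to 137532494, minus strand), had 5.56 and 4.85 CPM at 24 h, against 1.54 and 1.47 CPM at 0 h, a change of 1.79 ± 0.35 (adjusted p = 0.0148). RHOV, a GTPase, had 18.3 and 15.3 CPM at 24 h, against 4.83 and 6.34 CPM at 0 h, a change of 1.58 ± 0.22 (adjusted p = 0.00214). RNF43, a ubiquitin ligase that removes Wnt receptors from the cell surface, had 5.47 and 5.24 CPM at 24 h, against 2.54 and 2.01 CPM at 0 h, a change of 1.24 ± 0.21 (adjusted p = 0.00735). The groups lay apart in each. CBX8, a Polycomb protein, had 9.58 and 10.4 CPM at 24 h, against 4.73 and 4.13 CPM at 0 h (change 1.18 ± 0.20, adjusted p = 0.00829). CMTM8, a membrane protein, had 12.8 and 15.5 CPM at 24 h, against 7.20 and 5.49 CPM at 0 h (change 1.16 ± 0.20, adjusted p = 0.00695). MIR210HG, the host transcript of a hypoxia-induced microRNA, had 4.76 and 5.08 CPM at 24 h, against 1.97 and 2.38 CPM at 0 h (change 1.17 ± 0.24, adjusted p = 0.0184). The other 5 by rule, PPFIA4, NREP, FAM13A, ACSF2 and ECHDC3, changed by 1.42, 1.32, 1.15, 1.12 and 1.11 (adjusted p = 0.0264, 0.00565, 0.0288, 0.0232 and 0.0459). FAM13A has an antisense partner that was also called higher, and without a stated strand setting their reads cannot be told apart. Of these 11 rises, RHOV kept its call in 3 of the 4 cases with a library left out (adjusted p = 0.0593 without DMSO 24 h replicate 1). The other 10 kept it in 2 at most, with adjusted p up to 0.388 for PPFIA4 without that library.

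The 11 lists with no call spanned growth, translation and stress genes. In ribosome biogenesis and MYC targets, 17 of 17 changes were negative, with a median of -0.36, and 8 members were called lower with the 8 DMSO libraries alone. Cytosolic ribosomal proteins, which have many pseudogenes, had a median of 0.04 over 20 tested members, and nuclear-encoded respiratory chain genes a median of -0.08 over 19. Among 13 genes of the mitochondrial genome 1 was called, the complex I subunit MT-ND5, with 1555 and 1853 CPM at 24 h, against 2785 and 2983 CPM at 0 h (change -0.76 ± 0.17, adjusted p = 0.0325). All 13 changes were negative, and 9 were called with the 8 DMSO libraries alone, while MT-ND5 was lost without each single library (adjusted p up to 0.381). The mitochondrial share of reads was 5.29 and 4.76% at 24 h, against 5.61 and 6.05% at 0 h. Fatty acid synthesis, aminoacyl-tRNA synthetases, endoplasmic reticulum chaperones, heat shock genes, metallothioneins and nuclear retained RNAs had medians between -0.48 and 0.20. With the 8 DMSO libraries alone, 5 DNA repair genes and 3 fatty acid genes were called higher and 3 endoplasmic reticulum chaperones lower. These counts come from the fit with 726 higher and 1069 lower calls, against 80 and 293 in the main fit. Whether any list exceeded its share of those calls was not tested.

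The called genes also differed in sequence composition from the genes tested. The median GC content was 53.1% for genes that fell and 49.28% for genes that rose, against 48.85% for the genes tested. Their transcripts had median lengths of 3498 and 2504 nt, against 3084 nt. Each library's log2 CPM values were also taken relative to each gene's mean over all 14 libraries. Their slope on GC content per 10 points was -0.266 and -0.217 log2 at 24 h, against -0.226 and -0.11 at 0 h. With an offset for each library's trend on GC content and length, 1374 genes were called, including 371 of the 373 with unchanged sign. In each of the 373 genes both 24 h libraries lay on the same side of both 0 h libraries. That also held for 4202 of the 15181 tested genes on the higher side and 4527 on the lower side.

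The DMSO series at 0, 3, 12 and 24 h shows when the named genes moved. Between 3 h and 0 h edgeR called 0 genes (0%), with 215 at an unadjusted p under 0.05, and DESeq2 also called 0. CXCL8 had 39.8 and 35.6 CPM at 0 h, 33.0 and 36.2 at 3 h, 7.12 and 7.09 at 12 h, then 5.74 and 3.67 at 24 h. CDKN1A had 49.6 and 56.4 CPM at 0 h, 50.8 and 47.0 at 3 h, 17.5 and 19.2 at 12 h, then 17.9 and 20.9 at 24 h. FTH1 had 179 and 229 CPM at 0 h, 196 and 184 at 3 h, 62.2 and 60.3 at 12 h, then 70.1 and 71.2 at 24 h. These 3 genes were thus already low at 12 h. GDF15, which was also low at 12 h (80.6 and 84.3 CPM), had replicates of 316 and 134 CPM at 3 h. A later course was seen in HBEGF, with 7.99 and 8.61 CPM at 0 h, 9.12 and 7.61 at 3 h, 7.12 and 9.21 at 12 h, then 2.15 and 3.13 at 24 h. CCNG2 had 4.91 and 4.22 CPM at 0 h, 4.33 and 6.54 at 3 h, 5.72 and 5.88 at 12 h, then 16.2 and 12.5 at 24 h. INSIG1 had 103 and 97.0 CPM at 0 h, 77.5 and 114 at 3 h, 79.3 and 60.7 at 12 h, then 253 and 205 at 24 h. At 12 h both INSIG1 libraries lay below both 0 h libraries, with a change of -0.51 (adjusted p = 0.163), while HBEGF and CCNG2 had changes of -0.02 (adjusted p = 0.976) and 0.35 (adjusted p = 0.396) between 12 h and 0 h. HBEGF, CCNG2 and INSIG1 then had changes of -1.63, 1.30 and 1.71 between 24 h and 12 h (adjusted p = 0.00937, 0.00732 and 0.00117).

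**Figure D3:**
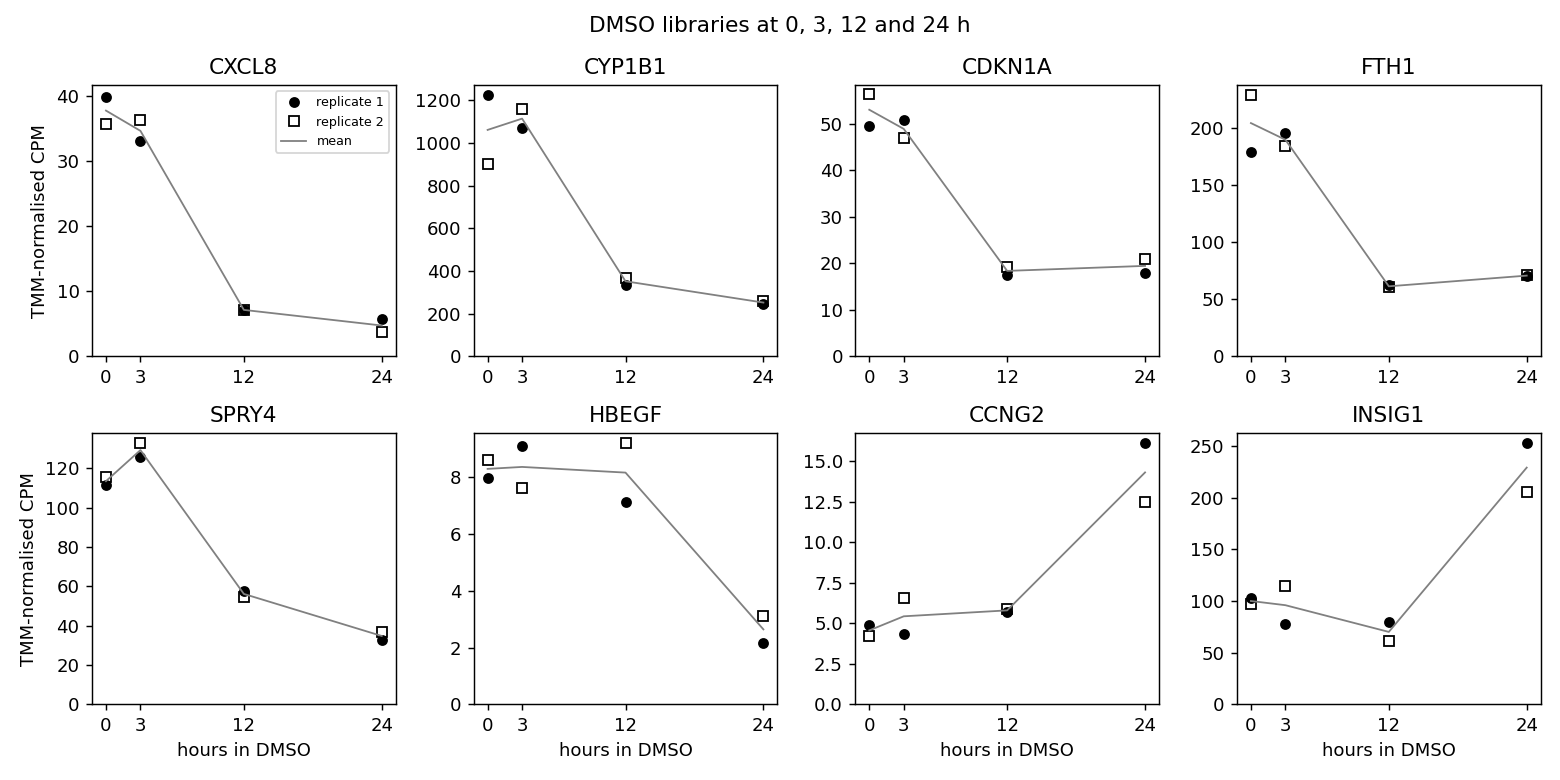
Levels of 8 named genes in the 8 DMSO libraries in TMM-normalised CPM (axes from 0) against hours in DMSO. Filled circles are replicate 1, open squares replicate 2, and the line joins the means of 2 libraries. CXCL8, CYP1B1, CDKN1A and FTH1 are near their 24 h level at 12 h, whereas HBEGF and CCNG2 are near their 0 h level and INSIG1 is below it, with SPRY4 in between.

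The interval from 3 h to 12 h in DMSO uses 4 other libraries for its changes, but its test shares the estimate of the spread from all 14. It had 192 calls (1.26%), 49 higher (0.323%) and 143 lower (0.942%). Of the 293 genes that fell between 24 h and 0 h, 261 had the same sign from 3 h to 12 h, 52 were called lower and 0 higher. Those 52 are 17.7% of the 293 and 36.4% of the 143. The median change of the 293 was -0.39 there, against -0.84 between 24 h and 0 h. Of the 80 genes that rose, 61 had the same sign, 8 were called higher (10% of the 80, 16.3% of the 49) and 2 lower. The share of all tested genes with the same sign in both intervals was not computed. Among the named genes, 22 of 49 falls were called in that interval, CXCL8 (-2.28), CX3CL1 (-2.25), LCN2 (-2.83), CYP1A1 (-2.35) and CDKN1A (-1.41) among them, against 1 of 20 rises, CMTM8 (1.34).

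**Figure D4:**
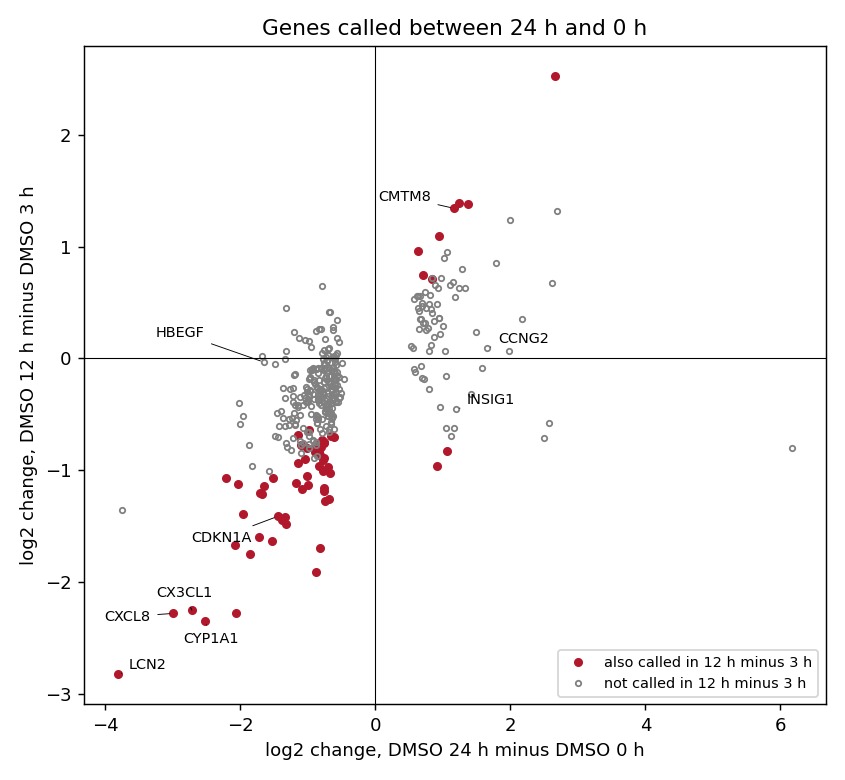
Each point is 1 of the 373 called genes, with its log2 change of DMSO 24 h minus 0 h (x) and of DMSO 12 h minus 3 h (y), which use different libraries. Red points were also called in the second interval. LCN2, CXCL8, CX3CL1 and CYP1A1 lie low on both axes, while HBEGF and CCNG2 lie near 0 on the y axis. The point farthest right, beyond 6, is a gene with no reads at 0 h whose fitted size is no measure.

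The PA series from 3 h to 24 h shares no library with DMSO at 24 h and 0 h. It had 5979 calls (39.4%), 2947 higher (19.4%) and 3032 lower (20.0%), so some overlap follows from its size. Of the 293 falls in DMSO, 190 (64.8%) were called lower in PA and 19 higher, and of the 80 rises, 64 (80%) were called higher and 4 lower. These are 6.27% of the 3032 and 2.17% of the 2947. CXCL8 (-1.57), CYP1B1 (-3.23) and CCNG2 (2.60) changed in the same direction under PA and under DMSO. ATF3 rose in PA (2.62) but fell in DMSO, as did GDF15 (1.53) and HMOX1 (0.86), and CDKN1A changed by 0.28 in PA (adjusted p = 0.207). PCNA and MCM6 fell in PA (-0.74 and -0.83) but rose in DMSO. These are values side by side, and no test of their difference was made.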

How the data were processed

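RNA of PANC-1 cultures was sequenced as 151 nt paired reads, per the labels' protocols. Per the submitters' processing notes, GRCh38, TopHat2 and edgeR were used. Not given in the sources used here are versions, the annotation, the counting tool and its strand setting. The authors deposited a table of raw read counts for 28120 genes and a table of RPKM (reads scaled by gene length and library total) for 25447 genes, each in 14 libraries.

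The count table was analysed with edgeR 4.0.16 in R 4.3.3, which used filterByExpr by group, TMM scaling, 7 group means with 7 residual degrees of freedom, the two-sided quasi-likelihood test and Benjamini-Hochberg adjustment over 15181 genes. The standard error is the absolute change over the square root of F. The biological coefficient of variation was 15.1%. The code was tested on simulated data. The deposited RPKM values served for alternatives with limma 3.58.1 on log2(RPKM + 1) and log2(RPKM + 0.1), and DESeq2 1.42.0 was a further alternative. Fits to the counts without some libraries, with other filters and scalings, with the replicate number as a block and with an offset for GC content and transcript length were also run.

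The members and the 32 gene lists were chosen with earlier results of these data known. Of 519 list members 489 were tested. Named by rule were the 14 largest rises and falls among called genes with at least 2 CPM on average, separate groups and a proper symbol, up to 4 called members of each list, and CDKN1A, MKI67, GAPDH and CDKN2A. Further called list members in the text were named after their values were seen, to complete the counts. Some members counted in the lists are not reported here by name. Coordinates are from GENCODE 29 and promoters from RefSeq. The 2 replicates of a group had Spearman correlations of 0.9955 (DMSO 24 h) and 0.9943 (DMSO 0 h), and the lowest of any group was 0.9784 (PA 12 h). Limits from a count of 0 cover counting error only.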

Additional observations from a re-analysis of the deposited data

How the results depend on the processing

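The changes of the 69 called genes named by rule kept their sign under each of 16 alternatives, and those of the 65 that passed the filter under each of the other two, a minimum of 5 CPM and a minimum RPKM of 1. Of the 69, 15 kept their calls with any 1 of the 4 libraries left out. With a library left out the number of calls ranged from 27 to 104, with 1 to 12 higher, 26 to 92 lower and 26 to 82 at 2-fold or more, against 373, 80, 293 and 123. The counts were higher when fewer groups set the spread. The 4 libraries alone gave 2644 calls (1185 higher, 1459 lower, 284 at 2-fold or more) and the 8 DMSO libraries alone 1795 (726, 1069 and 238). Without the PA 12 h libraries, an alternative chosen after seeing that their replicates differed most, there were 1250 (385, 865 and 196). DESeq2 gave 774 (251 higher, 523 lower), no filter 703 (270 higher, 209 at 2-fold or more), and the offset for GC content and length 1374 (437, 937 and 195). limma called 140 genes higher and 43 at 2-fold or more on log2(RPKM + 1), and 138 and 46 with a minimum RPKM of 1. DESeq2 size factors in edgeR (362), library totals (319) and a filter of 5 CPM (379) stayed within 1.5 times of 373, and of the 373 genes 345, 286 and 336 were called in the same direction. Calls of named genes were lost under DESeq2 size factors by TXNRD1, MKI67, PDK4, HMOX1, SMAD7, ZFP36 and EREG, and with library totals by these and SRXN1, PFKFB3 and IER3. On log2(RPKM + 1) and on log2(RPKM + 0.1), limma did not call PPFIA4, FAM13A, PFKFB3, MKI67, MT-ND5, PDK4, HMOX1, GDF15, SMAD7, EREG and IER3. It also left out ATF3 and NR1D1 on the first of these scales, and TXNRD1, ITGA3 and EGR1 on the second. The cause of these differences was not tested, beyond the smaller number of samples where libraries were left out.

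The replicate numbers were checked for pairing. The deviations of same-numbered libraries had correlations from -0.218 to 0.244 over 21 pairs of groups, with 0.036 for the 2 groups compared, and 2 were over 0.1. With 2 libraries in each group, these values cannot show whether libraries of the same number came from a shared culture or batch. With the replicate block, 259 genes were called (51 higher, 208 lower, 107 at 2-fold or more), 258 of them among the 373, and 10 of the 69 named genes missed the threshold. With the block and the offset for GC content together 1210 were called (383, 827 and 186).

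Signs turned in 2 further genes, neither of them called, namely FOS, from -0.839 to 0.584, and AHRR, from -0.073 to 0.171, over the fits without 1 library. Depth limits LCN2, CCL20, CYP1A1 and CSF2 at 24 h, where both libraries were below 1 CPM, and EGR1, where 1 was.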

Other observations

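The genes described here were picked after their values were seen and are given as values only. Several secreted factors outside the lists also fell. CSF1, the macrophage growth factor, had 24.9 and 25.1 CPM at 24 h, against 75.6 and 84.7 CPM at 0 h, a change of -1.68 ± 0.13 (adjusted p = 5.27e-05, edgeR). PTX3, a soluble pattern-recognition protein of innate immunity, had 130 and 136 CPM at 24 h, against 367 and 378 CPM at 0 h, a change of -1.49 ± 0.17 (adjusted p = 0.000597). The lymphatic growth factor VEGFC had 3.19 and 3.77 CPM at 24 h, against 9.70 and 9.32 CPM at 0 h, a change of -1.45 ± 0.18 (adjusted p = 0.000836). In each the groups lay apart, and each kept its call without any 1 of the 4 libraries, as did the transcription factor ETS1, which had 142 and 155 CPM at 24 h, against 356 and 326 CPM at 0 h (change -1.20 ± 0.15, adjusted p = 0.000836). BMP2 changed by -1.58 (adjusted p = 0.00389), and the protease PLAU and its receptor PLAUR, which start plasminogen activation at the cell surface, changed by -1.01 (adjusted p = 0.00505) and -1.21 (adjusted p = 0.00259). Without DMSO 24 h replicate 1 these 3 missed the threshold, at adjusted p = 0.104, 0.146 and 0.084.

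The fall of CYP1A1 and CYP1B1 was set beside other genes that the aryl hydrocarbon receptor induces. AHRR, its repressor, had 10.5 and 10.5 CPM at 24 h, against 11.03 and 9.60 CPM at 0 h, a change of 0.03 ± 0.16 (adjusted p = 0.956). TIPARP, an ADP-ribosyltransferase that restrains the receptor, had 73.5 and 66.6 CPM at 24 h, against 119 and 102 CPM at 0 h, a change of -0.66 ± 0.18 (adjusted p = 0.0749). NQO1 had 193 and 184 CPM at 24 h, against 171 and 158 CPM at 0 h, a change of 0.20 ± 0.12 (adjusted p = 0.437). The 3 genes did not pass, and AHRR had overlapping groups. Among genes of antioxidant defence outside the lists, SOD2, the mitochondrial superoxide dismutase, fell by 0.68 (adjusted p = 0.00882) and CAT, catalase, rose by 0.65 (adjusted p = 0.0216), and both lost their calls without each 1 of the 4 libraries, at adjusted p up to 0.139 and 0.341.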
